A study of Mus musculus with 19 samples.

Results

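Saa3, Hp and Pla2g7 are 3 of the 6843 distinct genes measured over 3 tables of a study of experimental autoimmune encephalomyelitis (EAE), the mouse model of multiple sclerosis, and each of the 3 genes was measured in every table. They encode secreted inflammatory proteins of macrophages and were selected on the microglia signal, for lower levels in the shXbp1 than in the shScrmbl libraries, so their microglial difference is a description here and carries no test. The tests below come from astrocytes and monocytes, which the choice did not use.

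Mice carried an intracranially delivered lentivirus whose Gfap promoter, active in astrocytes, drove GFP and a hairpin, either shXbp1 (pLenti-Gfap-GFP-shXbp1, aimed at the unfolded-protein-response factor Xbp1) or shScrmbl (pLenti-Gfap-GFP-shScramble, a hairpin with no target). Both groups were wild type C57Bl/6 females at P85, and both had EAE from 25 µg of MOG35-55 in complete Freund's adjuvant, so no group was without disease. Each nervous system came from 1 mouse, cells were sorted by flow cytometry, and RNA was counted at transcript 3′ ends. There were 4 shXbp1 and 4 shScrmbl astrocyte libraries, 3 and 4 microglia libraries, and 2 and 2 monocyte libraries. The hairpin was driven in astrocytes, so microglia and monocytes of the shXbp1 group are neighbours of the targeted cells, not the targeted cells by design.

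Saa3 encodes serum amyloid A3, an acute-phase apolipoprotein that mice make outside the liver, in macrophages among other cells, and that travels with high-density lipoprotein. Hp encodes haptoglobin, the plasma protein that captures free haemoglobin so that macrophages can clear it through the receptor CD163, and that neutrophils also store in granules. Pla2g7 encodes the lipoprotein-associated phospholipase A2, also called platelet-activating factor (PAF) acetylhydrolase, which macrophages secrete and which hydrolyses PAF and oxidized phospholipids. In EAE, blood monocytes enter the nervous system and turn into macrophages beside the resident microglia, and all of these cells can take part in the inflammatory response.

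Saa3 lies on chromosome 7 from 46711998 to 46715700 on the minus strand and has 4 exons (GRCm38, also called mm10; GENCODE M21). Hp lies on chromosome 8 from 109575128 to 109579172 on the minus strand with 5 exons, and Pla2g7 on chromosome 17 from 43568098 to 43612201 on the plus strand with 12 exons. In the last 500 bases of the first-numbered GENCODE transcript, where 3′ counting places its tags, 36 of the 476 25-base words of Saa3 (7.56%) also occurred in transcripts of Saa1, Saa2 or the pseudogene Saa-ps, so a small share of Saa3 tags could be split among these copies. None of the Hp words and 3 of the Pla2g7 words (0.630%) occurred in another gene. The upstream sequences of Saa3 and Pla2g7 are shown here because the 2 genes were chosen for one shared direction in microglia, and they cover the 250 bases before the RefSeq start on GRCm38.p6, 5′ to 3′ on the gene's own strand (Saa3 at chr7:46715677-46715926, minus; Pla2g7 at chr17:43568201-43568450, plus), with capitals for every match of a searched motif.
Saa3: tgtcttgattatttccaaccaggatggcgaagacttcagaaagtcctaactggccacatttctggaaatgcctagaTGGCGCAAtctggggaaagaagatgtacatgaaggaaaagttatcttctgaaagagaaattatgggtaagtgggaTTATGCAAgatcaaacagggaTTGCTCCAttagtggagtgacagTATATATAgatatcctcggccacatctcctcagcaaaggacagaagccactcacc
Pla2g7: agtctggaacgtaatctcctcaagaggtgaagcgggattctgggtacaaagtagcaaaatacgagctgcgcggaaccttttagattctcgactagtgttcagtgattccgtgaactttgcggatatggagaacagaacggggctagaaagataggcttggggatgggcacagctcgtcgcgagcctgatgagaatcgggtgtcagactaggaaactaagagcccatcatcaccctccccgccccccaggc

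The Saa3 window held a match for the C/EBP letters TTNNGCAA, named for a factor family known for driving acute-phase genes, at 99 bases upstream of the start. A variant of that motif, TGNNGCAA, matched at 174 bases upstream on the gene's strand and at 78 bases upstream on the other strand, and overlapping TATATA letters began 55 and 53 bases upstream. GENCODE places the Saa3 start 24 bases further upstream, which puts the TATATA letters 31 and 29 bases before it. It places the start of the first-numbered Pla2g7 transcript 182 bases upstream of the RefSeq start, so most of the Pla2g7 window lies within that transcript. The whole window lies within the GENCODE gene span given above, which starts at 43568098. The Pla2g7 window held no match for any of the 7 motifs searched on both strands, and neither window held the NF-kB consensus, AP-1 (TGANTCA), PU.1 (GAGGAA) or the XBP1 core (ACGTGG) letters. Over 32851 promoter windows of the same length, 9.56% held the C/EBP letters, 9.59% the variant and 5.25% TATATA. The NF-kB letters were in 1.41%, AP-1 in 6.75%, PU.1 in 23.3% and the XBP1 core in 6.91%. These matches describe letters in a window and say nothing of binding.

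The libraries were shallow and uneven: totals ran from 53228 to 221367 counts in shXbp1 and from 32842 to 302003 in shScrmbl astrocytes, from 10039 to 46586 and from 17892 to 122002 in microglia, and from 15654 to 56625 and from 74340 to 112676 in monocytes. The deposited values are counts scaled by a library factor, called signal below, and 1 count was worth a signal of 4.22 to 27.6 in astrocytes, 9.33 to 76.0 in microglia and 9.11 to 50.6 in monocytes. The targeted gene, Xbp1, had a mean signal of 49.5 ± 22.3 in shXbp1 astrocytes and 49.8 ± 30.3 in shScrmbl astrocytes (SD, n = 4 each; 28 and 22 counts), so no knockdown of the counted 3′ end was detectable in the sorted astrocytes at this depth. The astrocyte table held 12 of 14 listed astrocyte markers, at a summed signal of 2165 to 3229 in shXbp1 and 2007 to 2344 in shScrmbl. Of these, 1, 0, 1 and 0 were at 0 in the shXbp1 libraries, and 4, 0, 2 and 1 in the shScrmbl libraries. Clu alone had a mean of 1447 in shXbp1 and 1309 in shScrmbl astrocytes. Choroid plexus and ependyma markers there summed to 149814 to 275051 and 212603 to 310248. Microglia libraries held all 14 listed microglia markers in every library. The monocyte table held 17 of 19 monocyte and macrophage markers, with 1 at 0 in shXbp1 replicate 1 and 1 in shScrmbl replicate 2. Choroid plexus and ependyma markers summed to 33461 to 43118 in shXbp1 and 18040 to 63844 in shScrmbl microglia, above the microglia markers in every library. In monocytes they summed to 5192 to 8039 in shXbp1 and 3745 to 4826 in shScrmbl.

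In microglia, where the 3 genes were picked, Saa3 had the most counts of them, and the largest difference belonged to Pla2g7 in limma and to Hp in edgeR. Saa3 had a signal of 228, 828 and 359 in the shXbp1 microglia libraries (3, 12 and 15 counts), against 623, 2221, 1830 and 1120 in the shScrmbl libraries (12, 176, 196 and 28 counts). The groups overlapped, since shXbp1 replicate 2 lay above shScrmbl replicate 1, while the 3 highest libraries were all shScrmbl. The mean was 472 ± 315 (SD, n = 3) in shXbp1 microglia and 1448 ± 714 (n = 4) in shScrmbl microglia, a ratio of means of 0.326.

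Hp had a signal of 0, 138 and 23.9 in shXbp1 microglia (0, 2 and 1 counts), against 51.9, 782, 317 and 120 in shScrmbl microglia (1, 62, 34 and 3 counts). The groups overlapped through shXbp1 replicate 2 and the 2 lowest shScrmbl libraries, and the shXbp1 level rested on 3 counts in all. The mean was 54.0 ± 73.7 in shXbp1 and 318 ± 329 in shScrmbl microglia. Pla2g7 had a signal of 0, 0 and 215 in shXbp1 microglia (0, 0 and 9 counts), against 104, 896, 709 and 480 in shScrmbl microglia (2, 71, 76 and 12 counts). The single shXbp1 library with Pla2g7 counts was the deepest of its group and lay above shScrmbl replicate 1. In the other 2 shXbp1 libraries the limit behind a count of 0, taken as 3 counts, was a signal of 228 and 207, which spans the lowest shScrmbl value. The mean Pla2g7 signal was 71.8 ± 124 in shXbp1 and 547 ± 341 in shScrmbl microglia.

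All 3 genes had a lower mean in shXbp1 microglia, as had 56.2% of the 3066 genes tested there, and none of the 3 had every shXbp1 library below every shScrmbl library, which 4.92% of genes had. The choice of the genes fixed this direction, so nothing is read from these counts. The log2 difference, shXbp1 minus shScrmbl, was -1.67 for Saa3, -3.72 for Hp and -6.14 for Pla2g7 in limma on log2(signal + 1), and -1.73, -3.06 and -2.33 in edgeR on the counts. For Saa3 the scales gave close values, whereas the Pla2g7 value of limma reflects the 2 libraries at 0 and the pseudocount of 1. With the counts of each group pooled and divided by the summed scale of its libraries (counts per unit of signal), the ratio of shXbp1 to shScrmbl was 0.242 for Saa3 (95% counting interval 0.161 to 0.351), 0.0997 for Hp (0.0202 to 0.300) and 0.186 for Pla2g7 (0.0834 to 0.361). These intervals cover counting error only and not the spread between mice. In bulk sorted cells, fewer cells of a type and less RNA per cell cannot be told apart.

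**Figure D1:**
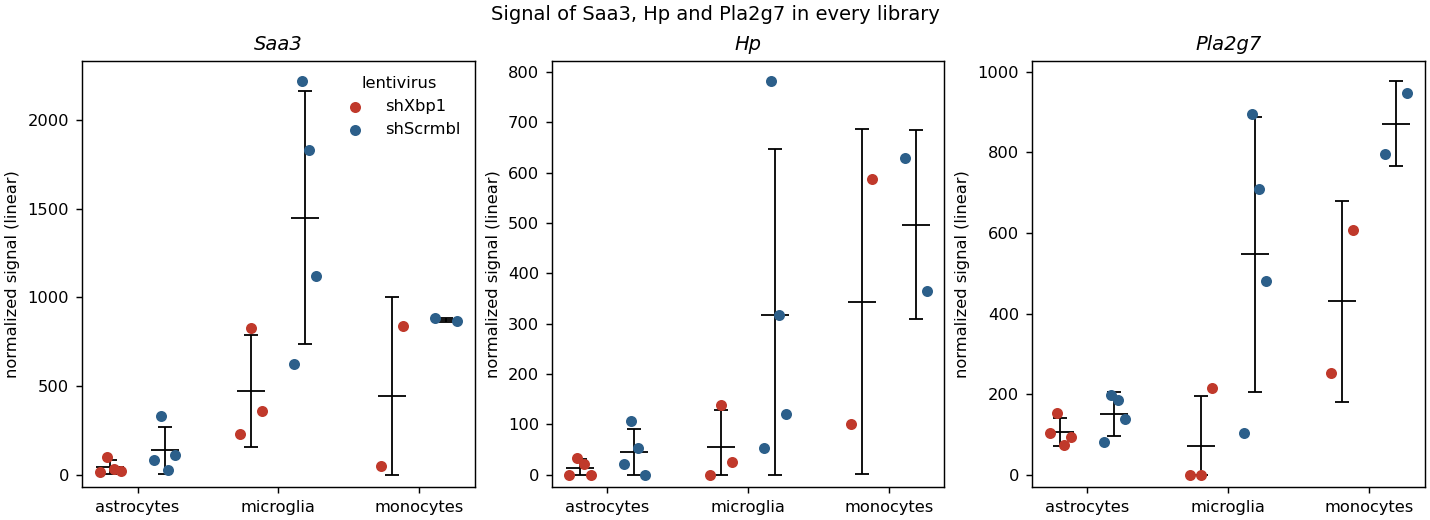
Normalized signal (linear axis, y) of Saa3, Hp and Pla2g7 in every library, by cell type (x) and lentivirus. Each point is 1 library, and bars give the group mean ± SD, with the lower end drawn no lower than 0. In microglia the highest libraries of each gene are shScrmbl (up to 2221 for Saa3), and in monocytes 1 shXbp1 library of Saa3 (50.6) lies far below the other 3 (837 to 880).

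In astrocytes, the cells in which the hairpin was driven, the 3 genes had lower means with shXbp1, and none passed the test over all genes. Saa3 had a signal of 17.1, 101, 31.2 and 19.9 in shXbp1 astrocytes (1, 21, 3 and 3 counts), against 80.2, 329, 26.6 and 110 in shScrmbl astrocytes (4, 78, 1 and 4 counts). Only 2 of the 4 shXbp1 libraries lay below every shScrmbl library, and replicate 2 was the highest of both groups. Mean Saa3 was 42.3 ± 39.6 in shXbp1 and 137 ± 133 in shScrmbl astrocytes (SD, n = 4 each). The limma log2 difference was -1.51 (SE 0.71, 95% interval -2.99 to -0.03), with an unadjusted p of 0.0453 and an adjusted p of 0.824 over 6366 genes. In edgeR's quasi-likelihood test it was -1.76 with an unadjusted p of 0.00114, rank 10 of 6366, and an adjusted p of 0.641. An exact two-sided permutation test of the mean signal gave p = 0.2, where 4 against 4 libraries allow no p below 0.0286. Saa3 in astrocytes rested on 1 library of each group: without shScrmbl replicate 2 the edgeR difference was -0.54 (adjusted p = 0.995), and without shXbp1 replicate 2 it was -2.81 (adjusted p = 0.0267).

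Hp was near the limit of detection in astrocytes, with 9 counts in shXbp1 and 28 in shScrmbl libraries. Its signal was 0, 33.7, 20.8 and 0 in shXbp1 astrocytes, against 20.1, 105, 53.3 and 0 in shScrmbl astrocytes, so the groups overlapped and shScrmbl replicate 2 held most of the counts. Its limma log2 difference of -1.83 had a 95% interval of -5.53 to 1.86 and an adjusted p of 0.841 (edgeR -1.85, adjusted p = 0.645; exact permutation p = 0.371). Pla2g7 was the most evenly measured member in astrocytes: 102, 154, 72.9 and 93.0 in shXbp1 libraries (6, 32, 7 and 14 counts), against 80.2, 198, 186 and 138 in shScrmbl libraries (4, 47, 7 and 5 counts). All 4 shXbp1 values lay below the shScrmbl median of 162, and the groups overlapped. Its limma log2 difference was -0.48 (95% interval -1.40 to 0.44, adjusted p = 0.838), in edgeR -0.53 (adjusted p = 0.881), and the exact permutation p was 0.229. After adjustment over the 6 permutation tests of astrocytes and monocytes, these 3 p-values were each 0.446.

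The background in astrocytes was close to even. All 3 genes had a lower shXbp1 mean, as had 43.7% of the genes tested, and 0 of the 3 had groups that did not overlap in that direction, against 0.785% of all genes. Limma called 0 of 6366 genes in either direction, with 298 at an unadjusted p under 0.05, and edgeR called 1 gene, lower (0.0157%), and DESeq2 0. Markers of myeloid cells moved with these values in 1 library. shScrmbl replicate 2, the deepest library and the highest for each of the 3 genes, had the highest summed signal of the 14 microglia markers (4065) and of the 6 measured monocyte and macrophage markers (1139). The other 7 libraries had 1686 to 2166 in shXbp1 and 1379 to 1518 in shScrmbl for microglia markers, and 398 to 876 in shXbp1 and 321 to 799 in shScrmbl for monocyte markers. No listed marker was at 0 across the astrocyte table, and the part of these markers in the Saa3, Hp and Pla2g7 values was not tested.

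In monocytes the 3 genes had lower means with shXbp1 and none passed a test, and for Saa3 and Hp the 2 shXbp1 libraries lay further apart than the group means did. Saa3 had a signal of 50.6 and 837 in shXbp1 monocytes (1 and 40 counts), against 880 and 865 in shScrmbl monocytes (63 and 95 counts). Both shXbp1 values were below both shScrmbl values, but replicate 2 lay just under them while replicate 1 held a single Saa3 count. Its mean was 444 ± 556 in shXbp1 and 873 ± 10.8 in shScrmbl monocytes (SD, n = 2 each). The limma log2 difference was -2.07 (SE 1.48, 95% interval -6.12 to 1.98, adjusted p = 0.887), and edgeR gave -0.81 (adjusted p = 0.988). Without shXbp1 replicate 1 the limma difference was -0.06, and without shXbp1 replicate 2 it was -4.08 (adjusted p = 1.13e-04), so 1 library decides it.

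Hp had a signal of 101 and 586 in shXbp1 monocytes (2 and 28 counts), against 629 and 364 in shScrmbl monocytes (45 and 40 counts). The groups overlapped, and the limma log2 difference of -0.97 (95% interval -2.55 to 0.61, adjusted p = 0.887; edgeR -0.36) became 0.29 without shXbp1 replicate 1 and -2.23 without shXbp1 replicate 2 (limma adjusted p = 0.00331). Pla2g7 had a signal of 253 and 607 in shXbp1 monocytes (5 and 29 counts), against 797 and 947 in shScrmbl monocytes (57 and 104 counts). Both shXbp1 values of Pla2g7 were below both shScrmbl values. Its limma log2 difference was -1.15 (95% interval -2.48 to 0.19, adjusted p = 0.887; edgeR -0.93). It moved least when 1 library was left out, from -1.78 (without shXbp1 replicate 2, limma adjusted p = 0.00277) to -0.52 (without shXbp1 replicate 1). The exact permutation p was 0.333 for Saa3 and Pla2g7, the smallest that 2 against 2 libraries allow, and 0.667 for Hp.

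Groups did not overlap for Saa3 and Pla2g7, 2 of the 3 genes, and 25.0% of the 3775 monocyte genes had this pattern in the same direction and all 3 had a lower shXbp1 mean, as had 58.6%. Limma called 100 lower genes (2.65%) and 1 higher gene (0.0265%) in monocytes, and edgeR 1 higher gene (0.0265%). Of the limma calls, 99 of the 101 were at 0 in both shXbp1 libraries, and none of the 3 members was among them. shXbp1 replicate 1 was the shallowest monocyte library, at 15654 counts. The 9 measured neutrophil markers, listed because neutrophils hold haptoglobin, summed to 293 and 354 in shXbp1 and 892 and 1076 in shScrmbl monocytes, with 4 of the 9 at 0 in each shXbp1 library and none in shScrmbl. Monocyte and macrophage markers summed to 5865 and 10154 in shXbp1 and 6656 and 9139 in shScrmbl monocytes. The part of depth and of these cells in the Hp values was not tested.

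**Figure D2:**
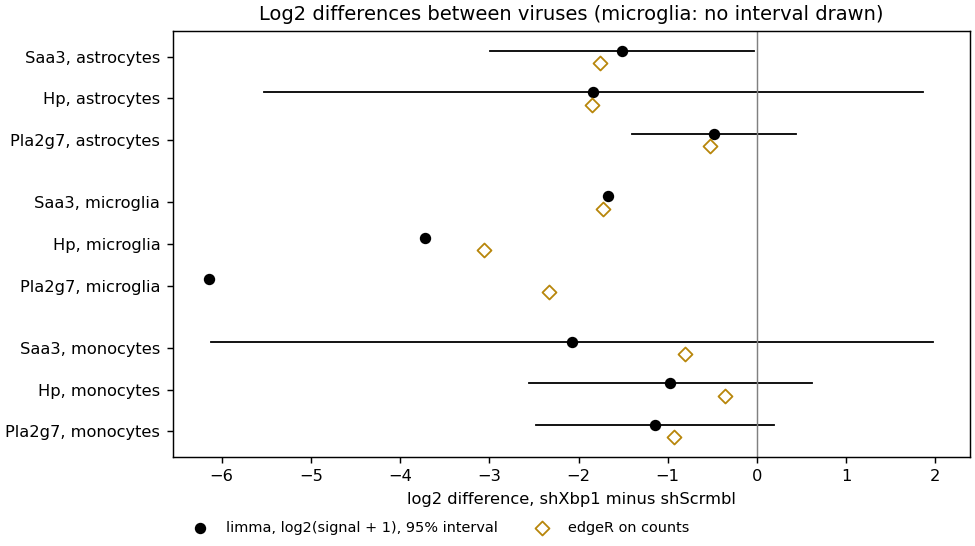
Log2 difference between shXbp1 and shScrmbl (x axis; below 0 means lower in shXbp1) for each gene and cell type. Circles give limma on log2(signal + 1) with its 95% interval, and diamonds give edgeR on counts. All 9 pairs of estimates lie below 0, the astrocyte Saa3 interval ends at -0.03, the other 5 intervals cross 0, and the 3 microglia rows carry no interval since the genes were picked there.

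Levels across cell types were set side by side within the shScrmbl libraries, with no test, since the 3 tables were normalized separately. Saa3 was highest in microglia (1448 ± 714, n = 4), then monocytes (873 ± 10.8, n = 2) and astrocytes (137 ± 133, n = 4). The microglia values of 623 to 2221 overlap the monocyte values, so those neighbours do not differ beyond their spread, while the astrocyte values of 26.6 to 329 lie below both. Hp was highest in monocytes (497 ± 187), then microglia (318 ± 329) and astrocytes (44.7 ± 46.1), and the ranges of neighbours overlap at each step. Pla2g7 was highest in monocytes (872 ± 106), then microglia (547 ± 341) and astrocytes (151 ± 53.7), again with overlapping neighbours. The order was the same when counts were divided by the library total or by the counts of the 2483 genes held by all 3 tables.

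In the shXbp1 libraries, the means of Saa3 were 472 in microglia, 444 in monocytes and 42.3 in astrocytes. For Pla2g7 they were 430 in monocytes, 106 in astrocytes and 71.8 in microglia. The order of microglia and astrocytes is not resolved, since 2 of the 3 microglia libraries held 0 Pla2g7 counts. The limits behind these zeros, a signal of 228 and 207, lie above all shXbp1 astrocyte values (72.9 to 154). The microglia library with counts, at 215, also lies above them. The genes were picked for low levels in shXbp1 microglia, so nothing is read from this order. Hp was 344 in monocytes, 54.0 in microglia and 13.6 in astrocytes.

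The mix of the 3 genes differed between microglia and monocytes. Tags at 3′ ends do not scale with transcript length, so counts of the genes were pooled as they are. Saa3 gave 71.4% of the 42 counts of the 3 genes in shXbp1 microglia (95% exact binomial interval 55.4 to 84.3) and 61.2% of the 673 in shScrmbl microglia (57.4 to 64.9). In monocytes it gave 39.0% of 105 in shXbp1 (29.7 to 49.1) and 39.1% of 404 in shScrmbl (34.3 to 44.1). Saa3 held 57.0% to 100% in each of the 7 microglia libraries and 12.5% to 41.2% in each of the 4 monocyte libraries, with no overlap of these shares. The 100% was 3 of 3 counts (95% interval 29.2 to 100), in shXbp1 microglia replicate 1. The 12.5% was 1 of 8 counts (0.316 to 52.7), in shXbp1 monocyte replicate 1, so intervals of single libraries can overlap. Pla2g7 was 61.5% of 96 counts in shXbp1 astrocytes (51.0 to 71.2) and 35.4% of 178 in shScrmbl astrocytes (28.4 to 42.9), but replicate 2 held 60 of the 96 and 150 of the 178. Without replicate 2 of each group the share was 75.0% of 36 counts in shXbp1 (57.8 to 87.9) and 57.1% of 28 in shScrmbl astrocytes (37.2 to 75.5), with overlapping intervals.

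**Figure D3:**
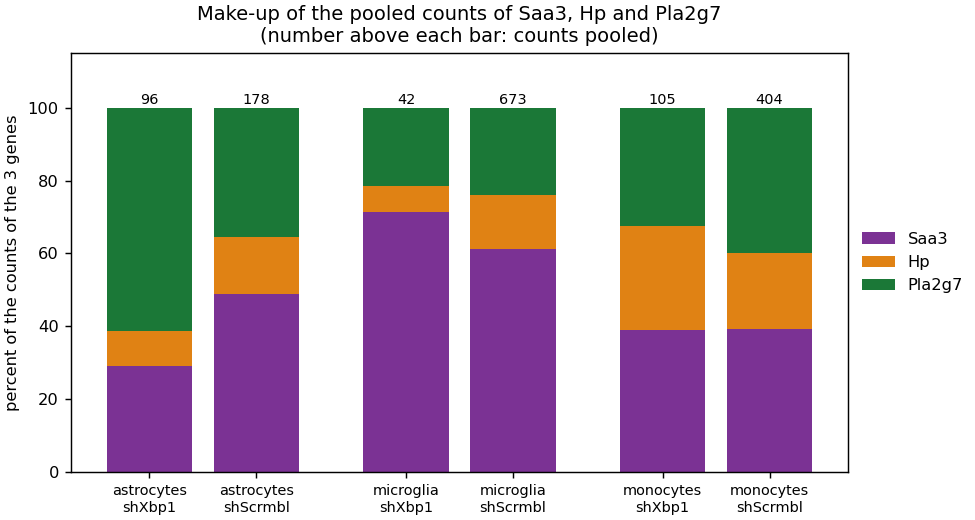
Make-up of the pooled counts of Saa3, Hp and Pla2g7 in each group (y axis, percent of the counts of the 3 genes; the number above a bar is the counts pooled). Saa3 makes up 71.4% and 61.2% in shXbp1 and shScrmbl microglia, and 39.0% and 39.1% in shXbp1 and shScrmbl monocytes.

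Monocytes and their descendants can reach a microglia sort, so the genes were set beside 15 monocyte and macrophage markers held by both tables. In microglia these summed to a signal of 1596 to 2691 in shXbp1 and 1880 to 6322 in shScrmbl libraries, with 2 to 6 of the 15 at 0 in each shXbp1 library and 0 to 4 in each shScrmbl library; no marker was at 0 in all of them. shScrmbl replicate 2 had both the highest marker signal and the highest Saa3, Hp and Pla2g7. Per 1000 counts of these markers, Saa3 had 143, 308 and 208 counts in shXbp1 microglia, against 324, 351, 552 and 596 in shScrmbl microglia. The nearest ratios of the 2 groups, 308 and 324, each rested on 12 Saa3 counts. Saa3 was picked for this contrast, so nothing is read from the order of these ratios. The Saa3 ratio was 9.35 and 84.0 in shXbp1 monocytes and 98.6 and 132 in shScrmbl monocytes, below that in every microglia library. Hp gave 0, 51.3 and 13.9 in shXbp1 and 27.0, 124, 95.8 and 63.8 in shScrmbl microglia, and Pla2g7 gave 0, 0 and 125 in shXbp1 and 54.1, 142, 214 and 255 in shScrmbl microglia. For both, the groups overlapped. The marker counts behind the shXbp1 ratios were 21, 39 and 72 counts, and the part of infiltrating cells in the microglial values was not tested. Microglia markers summed to 8003 to 13886 in shXbp1 and 7991 to 10760 in shScrmbl microglia. All 14 had a higher edgeR estimate in shXbp1 (10 in limma), at an edgeR median of 0.49 against -0.09 over all genes, none called. Neutrophil markers summed to 414 to 1140 in shXbp1 and 882 to 952 in shScrmbl microglia. Of the 7 measured, 6 had a lower edgeR estimate and 1, Csf3r, a higher one (480 against 250), none called. At 0 were 2, 5 and 0 of the 7 in the shXbp1 libraries, against 1, 0, 0 and 0 in shScrmbl. The part of neutrophils in the Hp values was not tested.

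**Figure D4:**
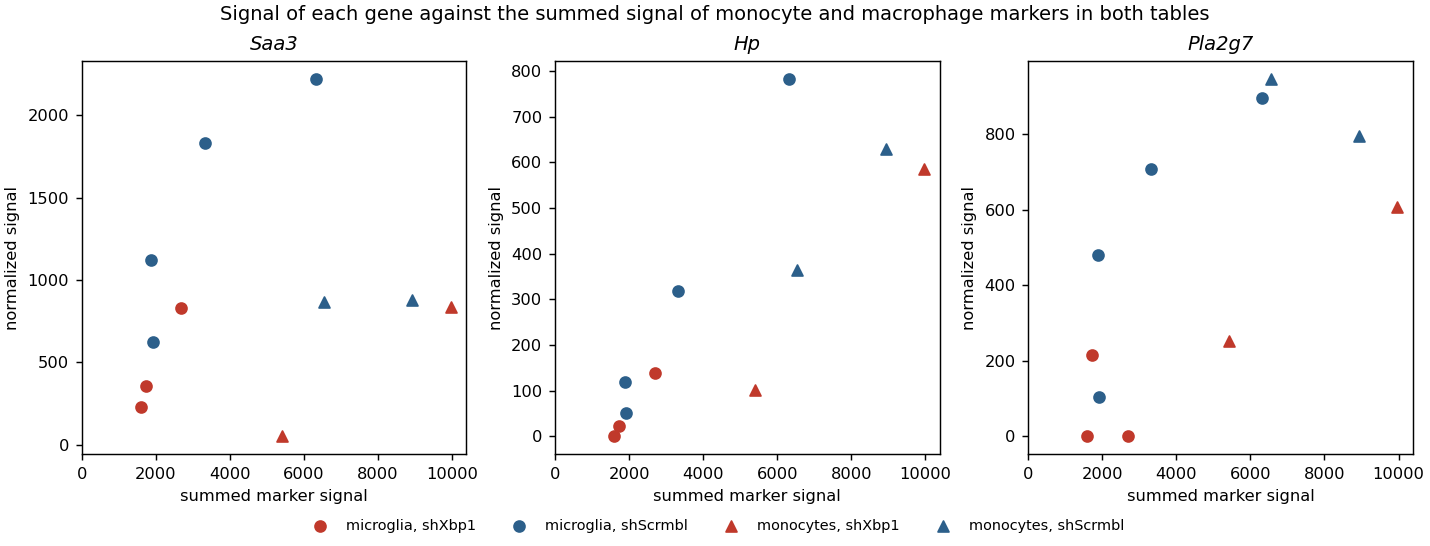
Signal of each gene (y axis, linear) against the summed signal of the 15 monocyte and macrophage markers measured in both tables (x axis, linear), for each microglia (circle) and monocyte (triangle) library. The 2 microglia libraries of highest marker signal, both shScrmbl (6322 and 3314), also have the most of each gene, and every monocyte library has less Saa3 per marker count than any microglia library.

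Across the 7 microglia libraries, Saa3 and Hp ran together on log2(signal + 1), with Pearson r of 0.944 and Spearman rho of 0.964. With the group means taken out, r was 0.913, and it was 0.971 without the 2 libraries farthest from the Saa3 median. Pla2g7 followed less closely, at r = 0.632 with Saa3 and 0.636 with Hp, and these were 0.143 and 0.300 once group means were taken out. In the 8 astrocyte libraries, Saa3 and Hp had r = 0.494 and rho = 0.464, and r was 0.0105 without 2 libraries. All of these are descriptions with no test, since the libraries also share a group and differ in depth.

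The genes most like each member in microglia were taken from 695 genes with a mean signal of at least 200. For Saa3 they were the lysozyme genes Lyz1 (r = 0.982) and Lyz2 (0.974), AW112010 (0.960), Ctsh for the lysosomal protease cathepsin H (0.951) and Psap for prosaposin (0.951). For Hp they included Lyz2 (0.981), AW112010 (0.967), Lsm4 (0.964) and Ctsh (0.963), and 3 of these 4, all but Lsm4, were shared with the Saa3 list. For Pla2g7 they were Arhgdib (0.977), B2m, the light chain of major histocompatibility class I (0.977), Tapbp (0.960), Ssr4 (0.956) and Rnh1 (0.950), with none shared. Group means were left in, and the members were picked for a group difference in the same 7 libraries. Taking the top 5 of 695 genes also favours a large r. Hp rested on 3 counts in shXbp1 microglia, and Pla2g7 was at 0 in 2 libraries there. These r values are therefore descriptions with no test. In the 8 astrocyte libraries, from 613 genes, the closest to Saa3 were H3f3b (0.869), Npc2 (0.863), Trf for transferrin (0.840), Ctsz (0.830) and Lyz1 (0.826). The closest to Pla2g7 included Apoe (0.922), H2-Ab1 (0.891), Rps18 (0.836) and Rpl11 (0.835), and those closest to Hp had r of 0.800 (Bpnt1) and less.

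Genes around the 3 members were counted in microglia from 6 lists, with a test of each gene over all genes; limma called none of them there, where it called 0 of 3066 genes with 166 at an unadjusted p under 0.05. EdgeR called 8 lower genes (0.261%) and 4 higher genes (0.130%) of 3066, and DESeq2 0. The 3066 genes include the 3 members, picked for being lower here, so the share of lower calls is not independent of that choice. Of the acute-phase and lipoprotein partners of serum amyloid A, 4 of 21 were measured, all with a lower edgeR estimate, and 1 was called. It was Cfb, complement factor B, at 126 ± 70.6 in shXbp1 and 511 ± 470 in shScrmbl microglia (edgeR log2 -2.29, adjusted p = 0.0164), beside C3 at 231 and 370, Fn1 at 96.2 and 244 and Slpi at 48.3 and 71.3. The median edgeR log2 difference of these 4 was -1.46, against -0.09 over all genes. In limma the 4 were also lower, at a median of -0.72 against -0.39 over all genes.

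Of the receptors and sensors for serum amyloid A, 6 of 14 were measured and none was called by limma or edgeR. Cd14, the co-receptor of the toll-like receptors, had 1452 ± 1009 in shXbp1 and 1292 ± 705 in shScrmbl microglia, and Tlr2 366 ± 163 and 416 ± 144. The list around acute-phase induction held cytokines, receptors, kinases, transcription factors and the NF-kB inhibitor gene Nfkbia. Of its 21 genes, 10 were measured, 8 with a higher edgeR estimate (6 in limma) and none called. Nfkbia was among the 8, at 793 ± 309 in shXbp1 and 519 ± 98.7 in shScrmbl microglia. The 2 with a lower edgeR estimate were both transcription-factor genes. Il1b, for interleukin 1 beta, had 1278 ± 907 in shXbp1 and 1192 ± 696 in shScrmbl microglia, and Tnf had 330 ± 52.2 and 175 ± 87.8 (edgeR adjusted p = 0.900). The median edgeR difference of this list was 0.41.

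Among genes of haemoglobin, the ligand of haptoglobin, and of haem handling, 8 of 14 were measured and edgeR called 1. Hbb-bt, an adult beta-globin gene with a near-identical copy, Hbb-bs, had 603 ± 255 in shXbp1 and 172 ± 211 in shScrmbl microglia (edgeR log2 1.95, adjusted p = 0.0164), a value uncertain because tags of the copies can be split. Hbb-bs had 672 ± 279 and 498 ± 549, and Ftl1, the ferritin light chain, 24613 ± 6426 and 47463 ± 17588, neither called. Of the PAF and phospholipase genes near Pla2g7, 9 of 21 were measured and none was called. Ptgs1, cyclooxygenase 1, had 482 ± 50.5 in shXbp1 and 506 ± 103 in shScrmbl microglia, Alox5ap, the 5-lipoxygenase-activating protein, 519 ± 89.4 and 365 ± 160, and Pla2g15, the lysosomal phospholipase, 333 ± 177 and 441 ± 213. Their median edgeR difference was 0.14.

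Of the other genes for products that inflammatory macrophages secrete, 26 of 31 were measured in microglia, 20 with a lower edgeR estimate and 2 called. Both were lysozyme genes: Lyz1 had 4612 ± 3647 in shXbp1 and 13380 ± 9123 in shScrmbl microglia (edgeR log2 -1.55, adjusted p = 0.0237), and Lyz2 4133 ± 3193 and 11155 ± 7132 (-1.44, adjusted p = 0.0383). Their tags can be split between the 2 copies. Apoe had 15830 ± 9447 and 24912 ± 7672 and Ctsd 14173 ± 3970 and 22714 ± 2673, neither called. The edgeR median of the list was -0.66, against -0.09 over all genes. In limma 18 of the 26 were lower, at a median of -0.47, close to the -0.39 over all genes. The monocyte and macrophage markers had 14 of 15 lower edgeR estimates in microglia with 1 called, Cybb, a subunit of the phagocyte oxidase (222 ± 63.7 in shXbp1 and 819 ± 597 in shScrmbl, edgeR adjusted p = 0.0164). Without shScrmbl replicate 2, 8 of the 15 monocyte and macrophage markers and 19 of 25 secreted genes had a lower estimate, at medians of -0.04 and -0.42 against -0.04 over all genes, and the median of the 4 acute-phase genes was -0.64. The number of edgeR calls in microglia moved with the library left out, at 23, 1, 0 and 16 without shScrmbl replicates 1 to 4 and 1, 11 and 5 without shXbp1 replicates 1 to 3. Cfb, Hbb-bt, Lyz1, Lyz2 and Cybb were each called in 3 of these 7 fits, and each kept its direction in all 7.

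In astrocytes and monocytes no gene of these 6 lists passed edgeR's test, and limma called 1, in monocytes. It was Plaa, for the phospholipase A2-activating protein, named here because of its value: it was listed at 0 in both shXbp1 libraries, against 48.3 ± 8.99 in shScrmbl monocytes (limma adjusted p = 0.00516, edgeR adjusted p = 0.923). Secreted macrophage genes had 23 of 24 tested members with a lower edgeR estimate in astrocytes, at a median of -0.86 against 0.05 over all genes, and 15 of 25 in monocytes, at -0.43 against -0.17. In limma the astrocyte count was 14 of 24. Myeloid markers had lower astrocyte estimates in edgeR as well, 12 of 14 for microglia and 5 of 6 for monocytes and macrophages. Limma gave the opposite direction for microglia markers, with 2 of 14 lower, at a median of 0.63 against 0.42 over all genes. For monocyte and macrophage markers it gave 3 of 6 lower. The edgeR counts rested on shScrmbl replicate 2, whose secreted genes summed to 35769. The sums were 8108 to 13619 in the shXbp1 and 9328 to 12631 in the other shScrmbl astrocyte libraries. Without it, edgeR gave 8 of 24 secreted genes, 0 of 14 microglia markers and 1 of 6 monocyte and macrophage markers a lower estimate, at a median of 0.13 for the secreted genes against 0.19 over all genes. Lyz1 had 279 ± 247 in shXbp1 and 1383 ± 1832 in shScrmbl astrocytes (edgeR adjusted p = 0.765), and 9801 ± 8641 and 20254 ± 344 in monocytes (adjusted p = 0.988). Cfb had 27.9 ± 13.4 in shXbp1 and 71.9 ± 87.3 in shScrmbl astrocytes, and 501 ± 565 and 648 ± 427 in monocytes, with neither difference called.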

How the data were processed

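Sorted astrocytes, microglia and monocytes gave 19 libraries of 3′ digital gene expression. The authors deposited 3 tables of normalized signal, 1 per cell type. Per the submitters' processing notes the tools were BWA 0.7.10 and limma 3.34.1 and the build mm10, with no role given, and the counter, annotation and scaling are not given in the sources used here. In each column, 100% of values above 0 were a whole number of counts within 0.01 of a count, so counts were recovered from the deposited signal, which may be reads or molecules. The tables held 6376, 3067 and 3776 genes (astrocytes, microglia, monocytes), of which 6366, 3066 and 3775 were tested, those with a signal of 1 or more in at least n libraries, n being the size of the smaller group.

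Each table was fitted alone, shXbp1 against shScrmbl, without covariates. The test was limma 3.58.1 (R 4.3.3; trended, robust empirical Bayes) of log2(signal + 1), and Benjamini-Hochberg adjusted p-values had a threshold of 0.05. For genes of few counts the pseudocount sets the fold. EdgeR 4.0.16 (quasi-likelihood) and DESeq2 1.42.0 on the recovered counts were alternatives, beside other pseudocounts, filters, scalings, a replicate block and leaving out each library. List counts and shares without 1 library were added after seeing the data. Exact two-sided permutation tests and binomial intervals used scipy 1.17.1 (Python 3.11.15), and all intervals and the floor of 3 counts cover counting error only. The tests were tested on simulated data.

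The members, the gene lists and the tests were chosen with earlier results of these data known. The text names the 3 members, the 5 genes most like each by Pearson r among genes with a mean signal of at least 200, and up to 5 genes of each list by mean microglial signal. Some genes that this rule names are not reported here. Plaa, Cybb and Csf3r were named after their values were seen. The labels say 1 nervous system per mouse, but not whether libraries of different cell types with one number share a mouse. Sequences come from RefSeq (GRCm38.p6), where 2 of the 3 members matched the promoter table, and positions from GENCODE M21.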

Additional observations from a re-analysis of the deposited data

Results flagged for a closer look

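The signal of Saa3 in shXbp1 astrocytes had 1 library apart from the rest. Replicate 2 had a signal of 101 (21 counts), against 17.1, 31.2 and 19.9 in the other 3 libraries (1, 3 and 3 counts), so its gap to the nearest value took 0.831 of the whole range of the group, just above Dixon's 95% critical value of 0.829 for 4 libraries. It was also the deepest library of its group, at 221367 counts, and had the highest summed signal of monocyte and macrophage markers among the shXbp1 astrocyte libraries (876, against 398 to 708). Of the 9 groups of 4 libraries examined, 1 was marked in this way, and chance marks about 1 in 20.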

How the results depend on the processing

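Counts of genes past the threshold depended on the tool: in astrocytes limma called 0 and edgeR 1 with either scaling or no filter, in microglia limma called 0, or 1 with a pseudocount of 50, and edgeR 12, 11 with DESeq2's size factors and 12 with no filter, and in monocytes limma called 101, but 0 with a pseudocount of 10 or 50, with a mean signal of at least 50 or, in an alternative chosen after seeing the data, without the robust step, while edgeR called 1 with either scaling or no filter and DESeq2 0. Without 1 library the calls ran from 0 to 8 in astrocytes, 0 to 23 in microglia and 0 to 1163 in monocytes. The differences of the 3 genes kept their direction in every alternative with all libraries. Pla2g7 in microglia, -6.14 in limma, was -2.50 with a pseudocount of 50, -2.33 in edgeR with each scaling and filter and -2.44 in DESeq2, and in limma the pseudocount sets the value of its 2 libraries at 0. With pseudocounts of 10 and 50, Hp was -2.53 and -1.61 in microglia and -1.01 and -0.48 in astrocytes, and Saa3 was -1.30 and -0.85 in astrocytes. Without 1 library, Saa3 ran from -2.81 to -0.54 in astrocytes and from -4.08 to -0.06 in monocytes, Hp from -3.24 to -0.52 and from -2.25 to 0.29, and Pla2g7 from -0.85 to -0.28 and from -1.78 to -0.52. In microglia these ranges were -2.25 to -1.25 for Saa3, -5.32 to -1.76 for Hp and -8.73 to -1.98 for Pla2g7. Hp in monocytes turned above 0 without shXbp1 replicate 1 (0.29 in limma, 0.22 in edgeR) and without shScrmbl replicate 1 (0.02 in edgeR). Where 1 library was left in a group, it was assumed to vary like the others. Apart from the pseudocount, the cause was not tested. Hp in astrocytes gave no value with a mean signal of at least 50, and Saa1 and Saa2 tags limit Saa3 as stated above.

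With the replicate number as a block, limma called 0, 0 and 112 and edgeR 3, 24 and 0 genes in astrocytes, microglia and monocytes, and Pla2g7 in microglia was -2.43 in edgeR. None of the tested differences of the 3 genes passed. Same-numbered libraries correlated at 0.064 at most in their deviations from the group means, so the numbers were not taken to pair the libraries.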
